A study of Mus musculus with 6 samples.

Results

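Carbonic anhydrases are the enzymes that hydrate CO2 to bicarbonate and a proton, and their transcripts were examined here in lung fibroblasts of mice that had breathed a high level of CO2. The 10 genes are Car2, Car3, Car4, Car5b, Car8, Car9, Car11, Car12, Car13 and Car14. They were taken by gene symbol from a table of 43430 Ensembl gene IDs, and were chosen with earlier results of these data known. The table holds 16 genes of the family in all. Family members differ mainly in where the protein sits. Some work in the cytosol (Car2, Car3, Car13), one in mitochondria (Car5b), and others at the cell surface, either on a lipid anchor (Car4) or spanning the membrane with the catalytic domain outside (Car9, Car12, Car14). Car8 and Car11 encode carbonic anhydrase-related proteins, which keep the fold but not the enzyme activity. In the lung, carbonic anhydrase speeds the exchange of CO2 between blood and alveolar gas, with Car4 on the capillary endothelium and Car2 inside red cells and several tissue cells.

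All animals were male C57BL/6J mice, 9 to 11 weeks old when obtained, and the labels name no engineered allele. One group stayed in room air and the other breathed 10% CO2 in normoxia for 10 days, which is hypercapnia, a raised level of CO2 in the blood. Lung cells positive for PDGFRA, a receptor found on most lung fibroblasts, were collected by flow cytometry and sequenced. Each group had 9 mice, pooled 3 to a library, which gave 3 libraries from room air (M1 to M3) and 3 from hypercapnia (M4 to M6), so the spread between libraries averages over the mice within a pool.

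Library totals ran from 8999780 to 10198336 counts. Levels are given as CPM, counts scaled to a common library size with composition factors, or, to compare genes with each other, as CPM per kilobase of exon (FPKM). The sorted receptor gene Pdgfra was at 2525 to 3701 CPM and Col1a1, a collagen chain of fibroblasts, at 4518 to 5455 CPM over the 6 libraries. Of the other cell types, Ptprc, the leukocyte marker CD45, had no more than 0.236 CPM and Epcam, of epithelium, no more than 2.24 CPM. Other markers of these cell types were higher, with Lyz2, of macrophages and some epithelium, at 10.1 to 58.6 CPM, Sftpc, of alveolar type 2 cells, at 48.9 to 189 CPM and Scgb1a1, of airway club cells, at 126 to 488 CPM. Pecam1, of endothelium, ran from 56.6 to 251 CPM in room air and from 227 to 390 CPM in hypercapnia. In bulk libraries, a change in the number of cells of a type and a change in RNA per cell cannot be told apart.

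The active site of a carbonic anhydrase holds a zinc ion bound by 3 histidines, and the coding sequence shows which of the 10 genes can encode it. The 33 coding bases around the first and second of these positions are printed for both abundant enzymes and for Car11, a related protein. They are written 5′ to 3′ on the coding strand from GENCODE M21 transcripts (mm10), with the codons at those positions in capitals. The Car2 window lies at chr3:14895057-14895089 (plus strand, exon 3) and the Car4 window at chr11:84964155-84964187 (plus strand, exon 4). The Car11 window lies at chr7:45702536-45702568 (plus strand, exon 4).
Car2: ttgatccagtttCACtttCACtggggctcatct
Car4: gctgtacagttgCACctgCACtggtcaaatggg
Car11: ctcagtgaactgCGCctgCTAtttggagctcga
CAC and CAT are the codons of histidine. By alignment to Car2, 8 of the 10 genes have a histidine codon at all 3 positions. Car8 has 2, with the first position replaced, and Car11 has 0.

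Transcripts of Car2 and Car4 made up most of the family's expression in these libraries. In room air Car2, the fast cytosolic enzyme, was at 38.3, 41.8 and 35.6 FPKM in M1, M2 and M3, and Car4, the lipid-anchored surface enzyme, at 19.5, 23.3 and 8.40 FPKM. Every room air library therefore held more Car2 than Car4. On this scale the order was the opposite in each hypercapnia library, with Car2 at 32.1, 28.4 and 26.0 FPKM and Car4 at 36.7, 36.9 and 27.4 FPKM in M4 to M6. That order rests on the division by exon length (2422 bases for Car2 and 1966 for Car4). In CPM, Car2 stayed above Car4 in M4 (77.8 against 72.1) and M6 (63.0 against 53.9), and only M5 had more Car4 (72.5 against 68.7). The ratio of Car4 to Car2 in FPKM was 0.510, 0.558 and 0.236 in room air and 1.142, 1.301 and 1.053 in hypercapnia. Together these genes gave between 78.6% and 88.3% of the summed FPKM of the 16 family genes in a library.

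**Figure D1:**
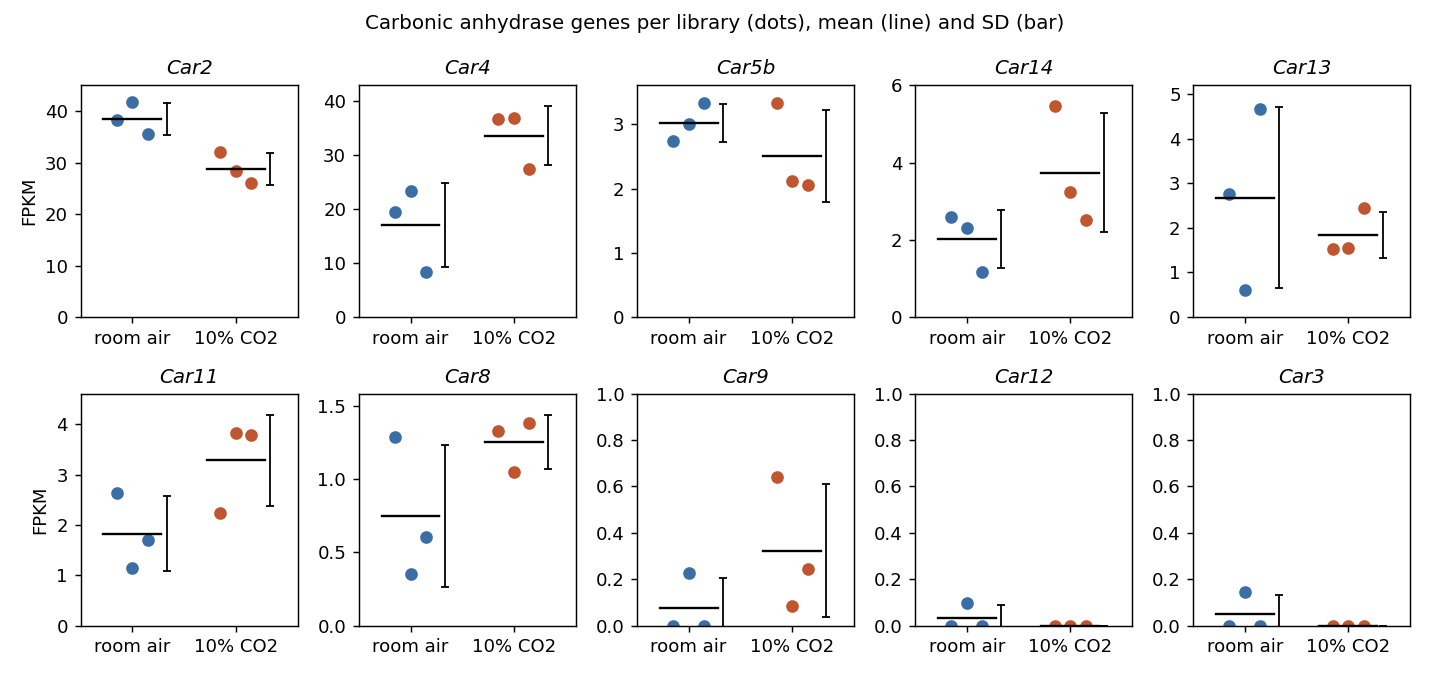
FPKM of the 10 carbonic anhydrase genes (y axes start at 0 and differ between panels) in room air (blue) and in 10% CO2 (orange). Dots are libraries, lines are means and bars are SD over 3 libraries. The groups do not overlap for Car2 and Car4, and Car3 and Car12 have counts in a single room air library.

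The other tested genes stood far lower and close to each other. In room air Car5b, the mitochondrial enzyme, was at 3.03 ± 0.295 FPKM (SD, n = 3), cytosolic Car13 at 2.67 ± 2.03, transmembrane Car14 at 2.02 ± 0.756, Car11 at 1.83 ± 0.75 and Car8 at 0.748 ± 0.481 FPKM. In that order only the steps from Car2 to Car4 and from Car4 to Car5b were free of overlap between libraries, and neighbours below Car5b could not be ordered. In hypercapnia the means ran from Car4 (33.7 ± 5.42 FPKM) and Car2 (28.8 ± 3.08) to Car14 (3.73 ± 1.54), Car11 (3.29 ± 0.902), Car5b (2.50 ± 0.717), Car13 (1.84 ± 0.522) and Car8 (1.25 ± 0.181). There the libraries of Car4 and Car2 overlapped, and the steps free of overlap were those from Car2 to Car14 and from Car13 to Car8.

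Hypercapnia was then set against room air to ask whether prolonged high CO2 altered transcripts of the enzymes that handle it. By edgeR's quasi-likelihood test with Benjamini-Hochberg adjustment over all 13005 genes tested, 0 of the 7 members that passed the filter on low counts changed at an adjusted p under 0.05, where 1.22% of all tested genes did. Of the 7, 4 had a higher and 3 a lower level in hypercapnia, beside 48.5% of all tested genes with a negative log2 fold change. The median log2 fold change of the 7 was 0.75, against 0.01 over all tested genes. That median is the value of Car8 alone (± 0.50, SE, edgeR adjusted p = 0.624). At an unadjusted p under 0.05 the count was 3 (Car2, Car4 and Car14), beside 12.0% of all tested genes. The groups did not overlap for 2 of the 7, Car2 and Car4, beside 18.0% of all tested genes. Limma-voom also called 0 of the 7 (1.51% of all genes), while DESeq2 called Car4 (3.34% of all genes).

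Car4 had the largest log2 fold change of the tested members in the fit on group alone, though not with the endothelial covariate or without M1, M3, M4 or M5. It stood at 38.4, 45.9 and 16.5 CPM in M1 to M3, against 72.1, 72.5 and 53.9 CPM in M4 to M6. All hypercapnia libraries lay above all room air libraries, and M3 was the lowest by a wide margin. The log2 fold change was 0.98 ± 0.30 (SE, 95% interval 0.32 to 1.63), a 1.97-fold difference, with an edgeR adjusted p of 0.175. Without M3 it was 0.65 (adjusted p = 0.118). The adjusted p was 0.0151 by DESeq2 and 1.85e-07 by edgeR with no filter on low counts, a setting that called 3.62% of the genes it tested, and 0.115 without composition factors. Car4, ENSMUSG00000000805, lies on chromosome 11 from 84957786 to 84966044 (mm10), and its exons overlap no other gene.

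Car2 differed in the opposite direction and by less. It stood at 92.7, 101 and 86.3 CPM in M1 to M3, against 77.8, 68.7 and 63.0 CPM in M4 to M6. The lowest room air library thus lay above the highest hypercapnia library. The log2 fold change was -0.42 ± 0.12 (SE, 95% interval -0.69 to -0.15), with an edgeR adjusted p of 0.156. It stayed between -0.56 and -0.35 under all 14 alternatives tried, none of which called it. Car2, ENSMUSG00000027562, lies on chromosome 3 from 14886273 to 14900770, in a stretch of 259 kb that also holds Car1, Car3 and Car13.

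**Figure D2:**
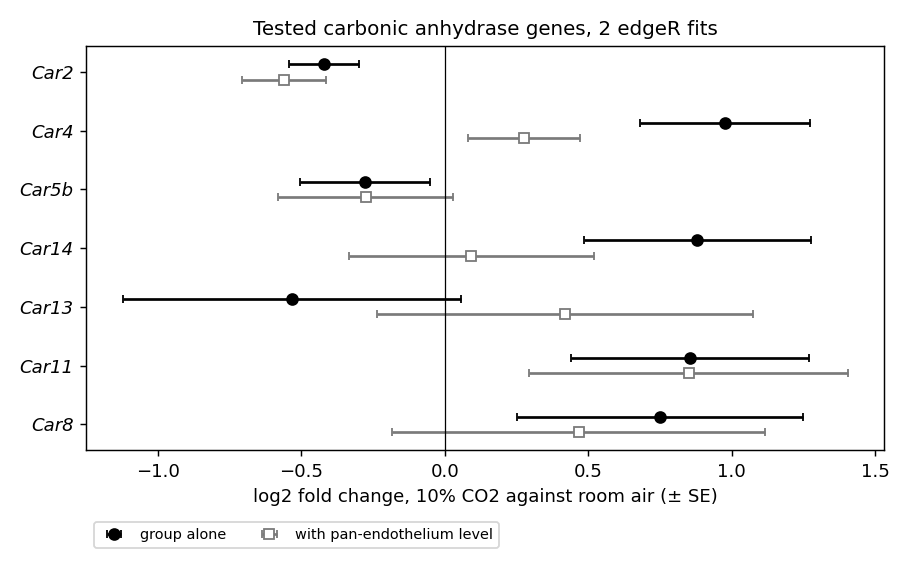
Log2 fold changes (x axis, 10% CO2 against room air) of the 7 tested carbonic anhydrase genes, with SE as bars. Filled circles are the edgeR fit on group alone and open squares the fit with the pan-endothelium marker level added, where Car4 moves from 0.98 to 0.28, Car14 from 0.88 to 0.09 and Car2 from -0.42 to -0.56.

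Because Car4 marks aerocytes, the capillary endothelial cells of the gas exchange surface, endothelial transcripts were measured beside it. All 13 pan-endothelial markers were on the higher side in hypercapnia (median log2 fold change 0.88), and 0 passed the test. Their summed level was 2207, 1927 and 659 CPM in M1 to M3, against 3518, 2655 and 2185 CPM in M4 to M6. M3 was thus the lowest library for these markers as for Car4. Egfl7, a secreted endothelial protein, and Erg, an endothelial transcription factor, had log2 fold changes of 0.88 ± 0.22 (SE, adjusted p = 0.1) and 1.301 ± 0.35 (adjusted p = 0.124). Ednrb, an endothelin receptor of aerocytes, was at 44.8, 38.6 and 16.5 CPM in room air, against 81.7, 70.0 and 50.4 in hypercapnia (1.02 ± 0.31, adjusted p = 0.174), values close to those of Car4 library by library. Of the 8 aerocyte markers, Car4 among them, 0 passed and 6 were positive. The smallest p was that of the membrane protein Emp2 (-0.46 ± 0.10, adjusted p = 0.0682), which with Tbx2 and Fibin stood above 100 CPM in every library, M3 included.

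Set against the endothelial markers, Car4 no longer separated the groups. Per 100 CPM of summed pan-endothelial markers there were 1.74, 2.38 and 2.51 CPM of Car4 in M1 to M3, against 2.05, 2.73 and 2.47 CPM in M4 to M6. With the mean log2 level of those markers as a covariate, the log2 fold change of Car4 was 0.28 ± 0.20 (SE, edgeR adjusted p = 0.549). That of Car2 was -0.56 ± 0.15 (adjusted p = 0.0819). The covariate itself was higher in hypercapnia (6.85 to 7.49 log2 CPM) than in room air (5.11 to 6.79) without overlap, so this fit cannot fully tell the markers and the treatment apart.

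**Figure D3:**
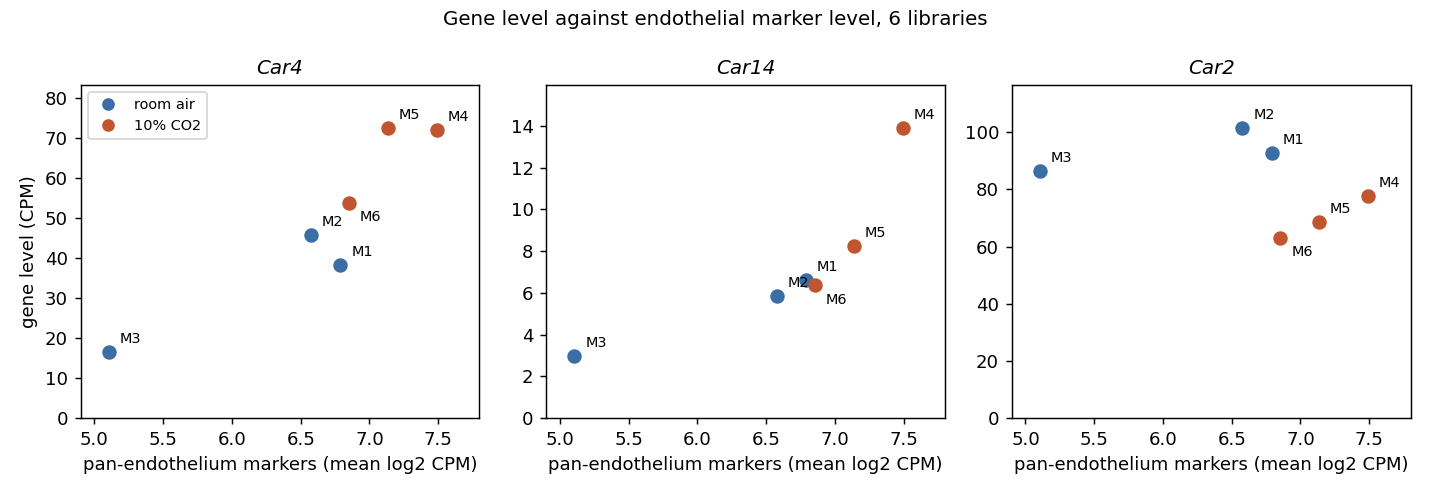
Levels of Car4, Car14 and Car2 (CPM, y axes from 0) against the mean log2 CPM of 13 pan-endothelial markers in the 6 libraries, blue for room air and orange for 10% CO2. Car4 and Car14 are lowest in M3, where the markers are lowest. The Car2 level of M3 (86.3 CPM) is the lowest of the room air libraries and lies above all hypercapnia libraries.

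Among the remaining membrane enzymes only Car14 passed the filter. It stood at 6.60, 5.88 and 2.97 CPM in room air, against 13.9, 8.25 and 6.36 in hypercapnia. The groups overlapped through M1 and M6, and M4 was far above the rest. Its log2 fold change was 0.88 ± 0.40 (SE, 95% interval 0.0031 to 1.76, edgeR adjusted p = 0.412). It was 0.51 without M4 and 0.60 without M3. With the endothelial level as a covariate it was 0.09 ± 0.43. The Car14 gene, on chromosome 3 from 95897768 to 95904691, shares 17.5% of its exonic bases with Aph1a on the other strand. Aph1a, a gamma-secretase subunit gene, was at 77.7 CPM in room air, against 90.6 in hypercapnia, and without the strand setting of the counting its reads cannot be separated from those of Car14 there.

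The mitochondrial and the second cytosolic enzyme showed no separation of the groups. Car5b, which supplies bicarbonate to mitochondrial carboxylases, was at 17.4, 19.1 and 21.2 CPM in room air, against 21.2, 13.5 and 13.1 in hypercapnia. M4 lay with the room air libraries, and the log2 fold change was -0.28 ± 0.23 (SE, 95% interval -0.78 to 0.22, adjusted p = 0.716). It was -0.53 without M4. Car5b lies on chromosome X from 163976822 to 164027997. Relative to its mean, Car13 varied most of the tested members among room air libraries. It was at 6.36, 1.36 and 10.7 CPM there, against 3.53, 3.54 and 5.61 CPM in hypercapnia. Its log2 fold change of -0.53 ± 0.59 turned to 0.14 without M3 and to 0.42 with the endothelial covariate, so no direction can be given for it.

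Both genes for related proteins without enzyme activity had positive log2 fold changes. Car11, whose window above has no histidine codon, was at 5.07, 2.20 and 3.28 CPM in room air, against 4.32, 7.37 and 7.29 in hypercapnia. M5 and M6 lay above all room air libraries and M4 below M1. The log2 fold change was 0.85 ± 0.42 (SE, 95% interval -0.06 to 1.77, edgeR adjusted p = 0.457), and 0.85 ± 0.56 with the endothelial covariate. Car8, a binding partner of the type 1 inositol trisphosphate receptor, was at 4.95, 1.36 and 2.33 CPM in room air, against 5.12, 4.03 and 5.33 in hypercapnia. Here M1 lay with the hypercapnia libraries. Car8 lies on chromosome 4 from 8143362 to 8239041 and Car11 on chromosome 7 from 45699843 to 45704682, with no exonic overlap. The log2 fold change of Car8, 0.75 ± 0.50 (95% interval -0.35 to 1.85, adjusted p = 0.624), was 1.38 without M1 and 0.41 without M2. The receptor gene Itpr1 stood at 252 ± 17.1 and 250 ± 20.9 CPM (SD, n = 3). Of the 3 receptor genes 0 passed, with Itpr2 at 0.61 ± 0.17 (SE, adjusted p = 0.148) and Itpr3 at 0.53 ± 0.21.

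Summed over the family, the level overlapped between groups, while the shares of Car2 and of Car4 did not. These shares come from the same Car2 and Car4 levels as above and are no separate result. The 16 genes summed to 70.4, 73.7 and 56.0 FPKM in room air and to 83.8, 77.5 and 66.4 FPKM in hypercapnia. Car2 gave 54.4%, 56.7% and 63.6% of that sum in M1 to M3, against 38.3%, 36.6% and 39.2% in M4 to M6. Car4 gave 27.7%, 31.6% and 15.01% in room air and 43.8%, 47.6% and 41.3% in hypercapnia. Car8 and Car11 together gave between 2.03% and 7.79% in a library, and that share overlapped between groups, as did the joint share of Car2 and Car4. By mean log2 CPM the endothelial markers were higher in M4 to M6 than in M1 to M3. By summed CPM they overlapped between M1 (2207) and M6 (2185). The part of these markers in the shares was not tested.

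**Figure D4:**
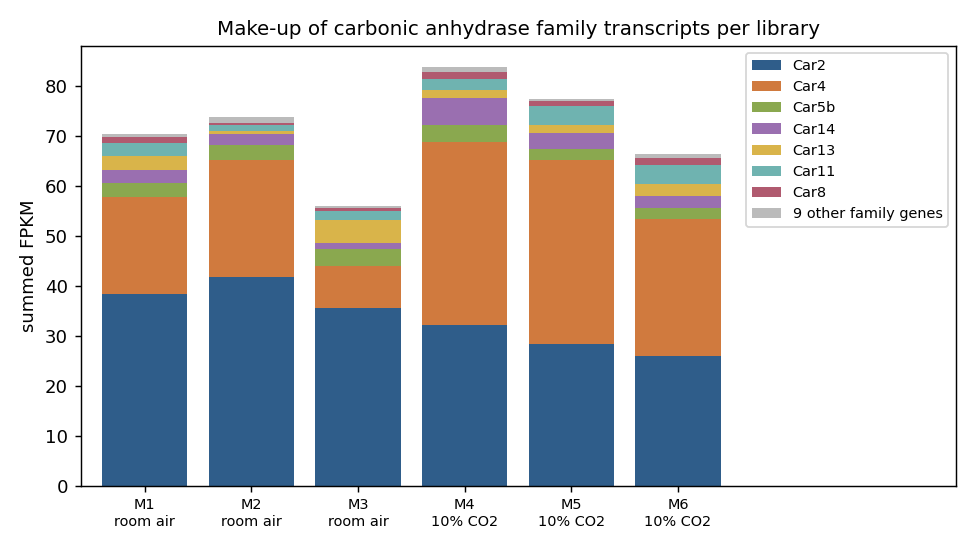
Stacked FPKM of the carbonic anhydrase family in each library (y axis from 0), with the 7 tested genes in colour and the 9 other genes of the family in grey. Per length of exon, Car2 is the largest block in M1 to M3 and Car4 in M4 to M6 (in CPM, Car4 exceeds Car2 in M5 only), and the totals run from 56.0 FPKM in M3 to 83.8 FPKM in M4.

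Car3, Car9 and Car12 did not pass the filter. At these depths 3 counts correspond to between 0.281 and 0.353 CPM. Car3, a cytosolic enzyme abundant in fat and skeletal muscle, had 4 counts in M2 and 0 in the other libraries. Of 8 fat cell markers, Adipoq, Cidec and Lep had 0 counts in every library, while Plin4 had 17 to 30 and Fabp4 1 to 14. Of 7 skeletal muscle markers, Ckm, Myh2 and Myh4 had 0 counts in every library, while Tnnt3 had 4 to 33 and Myh1 4 to 23. The part of such cells in the Car3 counts was not tested. Car12, a transmembrane enzyme, had 7 counts in M2 and 0 elsewhere. Car9, a surface enzyme known as a target of hypoxia-inducible factors, had 0, 5 and 0 counts in M1 to M3, against 13, 2 and 6 in M4 to M6, that is 5 in room air against 21 in hypercapnia. Of the 21 counts, 13 came from M4, which also had the highest summed level of 6 mesothelial markers (71.9 CPM, against 9.53 to 28.9 CPM in the other libraries). The part of mesothelial cells in the Car9 counts was not tested. Of the exonic bases of Car9, 9.29% are shared with the gene model Gm12454 on the other strand.

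The Car9 promoter carries a match to the core of the hypoxia response element, so other genes of that response were counted. The 100 bases before the RefSeq start of Car9, at chr4:43506926-43507025 on the plus strand (RefSeq, GRCm38.p6), are printed with the match in capitals.
Car9: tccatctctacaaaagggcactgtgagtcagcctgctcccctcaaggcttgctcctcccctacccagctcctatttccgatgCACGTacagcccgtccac
The motif searched was ACGTG on either strand (here its reverse complement), and not the form GCGTG, in the 250 bases before each start. It was found in 16.6% of 32851 RefSeq promoters and, of the 6 members with an entry there (Car4, Car5b, Car9, Car11, Car12 and Car14), in Car9 and Car14. The longer form ACGTGC, which contains the first motif, was found in 4.92% of promoters and, of those members, in Car9. A match describes these letters only. Of 16 tested hypoxia response genes, 0 rose and 1 fell, with a median log2 fold change of -0.06. The list includes Hif1a and Epas1, which encode hypoxia-inducible factors themselves. The gene that fell was Adm, which encodes the peptide adrenomedullin, at 105, 155 and 139 CPM in room air, against 74.7, 36.9 and 57.4 in hypercapnia (-1.24 ± 0.23, edgeR adjusted p = 0.0329). The call of Adm was lost without M2 (adjusted p = 0.201), without M5 (0.0963), without M6 (0.134) and with robust dispersion (0.101), while its direction was the same in all 14 alternatives.

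Genes for the transport of the products of carbonic anhydrase across membranes, and genes related to them, were counted from lists. Of 15 genes for bicarbonate and chloride transporters, both exchangers and sodium-bicarbonate cotransporters (such as Slc4a4 and Slc4a7), 6 were tested and 0 passed. The smallest p values were those of the exchangers Slc26a6 (-0.57 ± 0.28, SE, adjusted p = 0.461) and Slc4a2 (-0.17 ± 0.12, adjusted p = 0.648). Of 13 genes for proton exchangers, monocarboxylate carriers and their partner proteins (Slc9a3r1 and Bsg) 10 were tested and 0 passed. Slc9a5, a sodium-proton exchanger, was at 23.4, 17.3 and 27.9 CPM in room air, against 13.8, 11.9 and 14.6 in hypercapnia, without overlap (-0.77 ± 0.22, adjusted p = 0.144). Of 8 genes for gas channels, soluble adenylyl cyclase and proton-sensing receptors only Aqp1 and Gpr4 were tested, and 0 passed. Aqp1, a water channel that also passes CO2 and is abundant in lung endothelium, was at 344, 288 and 130 CPM in M1 to M3, against 494, 387 and 344 CPM in M4 to M6 (0.69 ± 0.29, adjusted p = 0.363), again lowest in M3. Gpr4, a proton-sensing receptor, had a log2 fold change of 0.58 ± 0.25. The bicarbonate-sensing cyclase gene Adcy10 had 0 counts in 5 libraries and 1 count in M5 (0.0982 CPM). Of 8 tested genes for bicarbonate-using carboxylases and related enzymes 0 passed, with Pcca, a propionyl-CoA carboxylase subunit, at -0.56 ± 0.18 (adjusted p = 0.203) and Cad, of pyrimidine synthesis, at -0.20 ± 0.12.

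The remaining family genes were at or near 0 in these libraries. Car1 and Car6 had 0 counts in every library, and Car5a, Car7, Car10 and Car15 had no more than 8 counts in any. Red blood cells are rich in Car1 and Car2, and the summed level of 8 red cell markers was between 0 and 1.70 CPM. Their part in the level of Car2 was not tested. Markers of epithelium, which also expresses Car2, summed to 435 to 719 CPM in room air and 424 to 548 CPM in hypercapnia, with 0 of 9 called, 4 positive and 5 negative. Scgb1a1 was at -0.70 ± 0.29 (adjusted p = 0.352) and Ager of alveolar type 1 cells at -0.90 ± 0.47, whereas Sftpc was at 0.56 ± 0.38. The part of epithelium in the level of Car2 was not tested either. Of 8 fibroblast markers 0 passed, 3 being positive and 5 negative, with Tcf21, a transcription factor of alveolar fibroblasts, at -0.44 ± 0.11 (adjusted p = 0.101) and the actin-severing protein gene Gsn at -0.17 ± 0.07, whereas Dcn, a matrix proteoglycan gene, was at 0.33 ± 0.16. The remaining marker lists had no called gene, with summed levels in room air and hypercapnia of 134 to 203 and 184 to 235 CPM for smooth muscle and pericytes and 10.7 to 55.7 and 24.2 to 60.3 CPM for macrophages and leukocytes. Fat cell markers summed to 2.12 to 4.005 and 2.50 to 3.44 CPM, and skeletal muscle markers to 1.47 to 2.33 and 1.82 to 5.50 CPM.

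The genes whose pattern over the 6 libraries was most like that of Car2, the member with the smallest p, were Arfgap2, Kctd5, Faim2, Pptc7 and Nol4l. They were the 5 highest by Pearson correlation of log2 CPM among 10752 genes whose mean was 5 CPM or more, with r from 0.9937 to 0.9996. Faim2, an inhibitor of Fas-mediated cell death, was at 213 CPM in room air, against 158 in hypercapnia, and the other 4 were between 29.9 and 45.6 CPM in room air. With 6 libraries such values describe these libraries only.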

How the data were processed

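The authors deposited raw RNA-seq counts, whole numbers per Ensembl gene ID without scaling. The tools named in the submitters' processing notes are TopHat2 2.1.0, HTSeq, bcl2fastq 2.17.1.14 and FastQC, with mm10 as the build and no roles stated. The strand setting and annotation release were not given in the sources used here. Columns carry the group in their names and were assigned to groups, not to single samples. Symbols, positions and exon lengths came from GENCODE M21 (a symbol for 42462 IDs).

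Counts were tested with edgeR 4.0.16 in R 4.3.3 (quasi-likelihood F-test, TMM factors from 0.943 to 1.05, default filter with a minimum count of 10, group as the only term, 4 residual degrees of freedom, Benjamini-Hochberg adjustment over 13005 genes). The SE is the size of the log2 fold change divided by the square root of F. Alternatives were RLE or no composition factors, no filter, a filter of 5 CPM in 3 libraries, DESeq2 1.42.0, limma-voom (limma 3.58.1), robust dispersion, the pan-endothelium marker level as a covariate, and leaving out each library. Translated coding sequences were aligned with mafft 7.526. Chi-square over genes, divided by its degrees of freedom, was 13.3 or more for every 2 libraries, so none repeated another. The fit was tested on simulated data. Members and lists were chosen with earlier results of these data known. Beside all 10 members, the text names called genes or the 2 with the smallest p of each list, sort checks and the 5 genes most like Car2; genes named in addition (such as Itpr1, Aph1a, Adcy10, Tbx2, Fibin, Lyz2, Sftpc, Dcn, Plin4 and Tnnt3) were chosen after their values were seen. The p-values measure the spread between pools of mice. Some results that fall under the naming rule are not reported here.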

Additional observations from a re-analysis of the deposited data

How the results depend on the processing

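Over all genes, the count of 159 changed genes was 756 without a filter on low counts, 435 by DESeq2 and 255 with robust dispersion, and 24 to 148 when a library was left out (24 without M2, 27 without M5 and 42 without M6). Without composition factors 97 genes were higher and 75 lower, against 68 and 91 with them. The count of carbonic anhydrase genes called, 0, was 1 (Car4) without the filter and 1 (Car4) by DESeq2, and 0 to 0 with a library left out. Car13 turned to 0.42 with the endothelial covariate and ran from -1.01 to 0.14 with a library left out. Car2, Car4, Car5b, Car8, Car11 and Car14 kept their direction under every alternative that tested them; the stricter filter left out Car8 and Car11. The causes of these differences were not tested. No paired analysis was possible because the labels give the groups no shared replicate numbers. At these depths 3 counts are 0.281 to 0.353 CPM, and Car3, Car9 and Car12 lie too near that level for any comparison.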

Other observations

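The genes most like Car4 over the 6 libraries were also looked up, a choice made after the values of Car4 were seen. By Pearson correlation of log2 CPM among 10752 genes they were Ccnd1 (r = 0.9996), Kif26a, Cyp4b1, Iqgap2 and N4bp3 (r = 0.9955). Ccnd1, which encodes cyclin D1 of the cell cycle, had 13.7 CPM in room air against 28.0 in hypercapnia, with a log2 fold change of 1.03 ± 0.33 (SE) and an edgeR adjusted p of 0.194. Cyp4b1, a cytochrome P450 enzyme abundant in lung, was at 79.6 and 168 CPM (1.08 ± 0.35, adjusted p = 0.211). None of the 5 passed the test, and the likeness is a description of 6 libraries in which endothelial markers were also higher in hypercapnia.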
